A study of Homo sapiens with 10 samples.

Results

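The comparison described here sets the vesicle pellet named EV 10K against whole PC3 cells. PC3 is a human line established from a bone metastasis of prostate cancer. Its members were chosen by sample title: the 3 EV 10K libraries (sets 1 to 3) and the single library of whole cells, from which no vesicles were isolated, which makes 4 of the 10 libraries of the series. All groups were PC3 cells, or vesicles from them, grown in medium with fetal bovine serum, with no drug, genotype or time in the labels. The other 6 libraries are the pellets EV 2.8K and EV 100K, with 3 sets each. The names give the spin without a unit, and whether each set was a culture of its own is not stated. The p-values therefore reflect variation among these libraries only, part of which may be technical. A single line was studied, and the cell side is 1 library.

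Extracellular vesicles (EVs) are membrane-bound particles that cells release by budding from the plasma membrane, by fusion of multivesicular bodies with it, or during migration and division. Spins of rising force collect particles of falling size, and an intermediate spin is commonly used for larger vesicles. The RNA inside can include RNA of the cytoplasm next to the site of release, and where the RNA of these pellets came from was not tested. Some mRNAs, among them RAB13 and NET1, are transported along microtubules to the tips of protrusions, while mRNAs of secreted and membrane proteins are translated at the endoplasmic reticulum (ER).

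Counts totalled 9710041, 7933251 and 10864958 in EV 10K sets 1 to 3 and 28735081 in the cell library. Levels are given as CPM (counts relative to a library of 1e+06), with TMM scaling over the 10 libraries. Differences are log2 fold changes of EV 10K minus cells from edgeR with their standard errors (SE), and a gene is called at an adjusted p below 0.05. Within EV 10K the libraries had Spearman correlations of 0.891 to 0.906 across genes. The biological coefficient of variation, the relative spread between libraries beyond counting error, was 0.767 for all genes and 0.222 for those of at least 50 CPM. Marker genes were as follows. KRT8, an epithelial keratin, stood at 477, 541 and 511 CPM in EV 10K and 504 in cells, and KLK3 and FOLH1 had no count in any of the 4 libraries. The 13 prostate and PC3 epithelial markers summed to 2098, 2653 and 2683 CPM in EV 10K and 2128 in cells. The 19 blood and serum genes summed to between 2.78 and 7.04 CPM in EV 10K and 2.99 in cells, with HBA1, HBA2 and PPBP at 0. The 20 leukocyte genes summed to 15.7 to 17.6 against 9.57 CPM, with PTPRC and CD3E at 0, and the 10 fibroblast genes to 5.94 to 13.2 against 15.3 CPM. Of the blood and serum genes 6 had a count in any of the 4 libraries, and of the leukocyte genes 10. The largest leukocyte member had a mean of 10.2 CPM in EV 10K. With zeros set to a floor of 3 counts, the median log2 fold changes of tested members were 2.91 (blood and serum) and 1.88 (leukocyte). None of these members was called.

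Of 22370 entries tested, 631 were higher in EV 10K (2.82%) and 359 lower (1.60%), or 990 in all (4.43%). Of 13535 protein-coding genes among them 499 were higher and 335 lower, and of 6294 entries of a long noncoding RNA catalogue 64 and 19. Most gene lists below hold protein-coding genes, while the shares of all entries set beside them include every type. All 3 EV 10K libraries lay above the cell library for 630 of the 631 higher entries, and below it for all 359 lower ones. Over all entries tested, 3629 had all 3 libraries above the cell library and 8086 all 3 below. The 10 most abundant entries made up 14.3% ± 2.29 (SD, n = 3) of counts in EV 10K and 5.12% in the cell library. Without the noncoding entry lnc-ARF6-1 these shares were 7.99% ± 1.21 and 5.12%. The split of calls moved with the scaling and the tool. With total counts in place of TMM factors, 434 were higher and 776 lower, and the median log2 fold change of all entries was -0.37 rather than -0.04. DESeq2 called 879 higher and 263 lower, limma-voom 829 and 1326, and edgeR without EV 2.8K set 1 called 900 and 622. Directions below are relative to the TMM scale. Unless stated otherwise, each gene called below kept its call and its direction under each of 20 alternative settings.

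**Figure D1:**
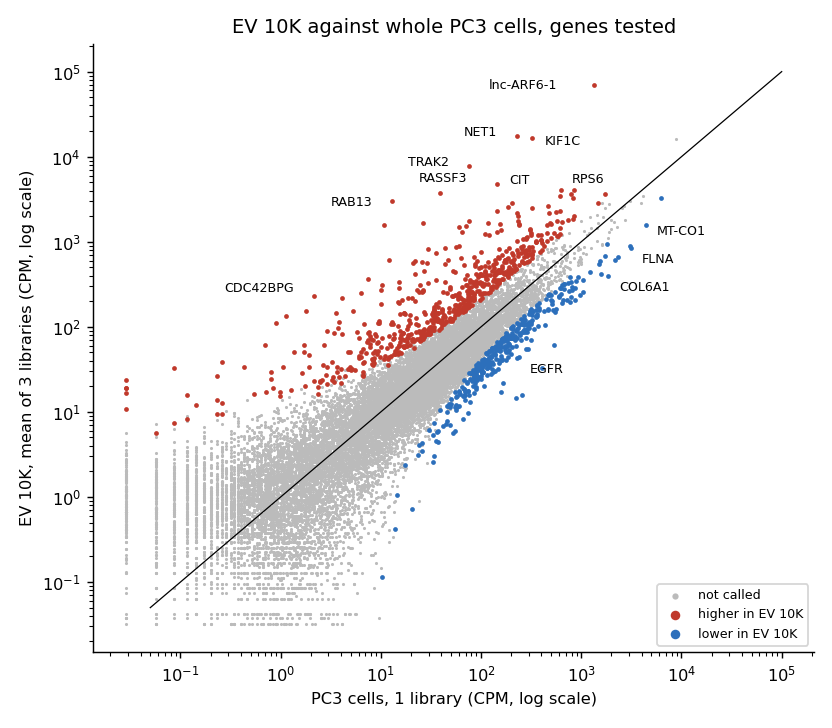
Level of each tested entry with a count in both groups, in the PC3 cell library (x axis, CPM, log scale) and its mean over 3 EV 10K libraries (y axis, CPM, log scale), with entries called higher in red, lower in blue and the line of equal levels in black. The protrusion mRNAs NET1, KIF1C, TRAK2, RAB13 and RASSF3 and the entry lnc-ARF6-1 lay far above the line, and COL6A1, FLNA and EGFR lay below it.

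Several mRNAs that are carried to cell protrusions stood far above their level in cells. Of 17 mRNAs known to localise there, 7 rose (41.2% of the list, against 2.82% of all entries) and none fell, with a median of 0.99 against -0.04 for all. RAB13, a small GTPase of endosomes and cell junctions, stood at 3504, 2568 and 2981 CPM in EV 10K and 12.9 CPM in cells. The fitted difference on the log2 scale was 7.87 (SE 0.47, edgeR adjusted p = 2.36e-58), the highest of the genes that met the rule for naming. TRAK2, an adaptor of kinesin on mitochondria, stood at 8766, 6523 and 8327 CPM against 76.3 (log2 6.69, SE 0.43). NET1, an exchange factor that activates RhoA, stood at 19510, 15240 and 17200 CPM against 231 (log2 6.23, SE 0.41). In each case the lowest EV 10K library lay far above the cell library.

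KIF1C is a kinesin motor that itself transports protrusion mRNAs. Its mRNA stood at 20180, 13250 and 16820 CPM in EV 10K and 321 CPM in cells (log2 5.71, SE 0.40). RASSF3, a RAS-association domain protein, stood at 4609, 3100 and 3640 CPM against 39.3 (log2 6.59, SE 0.43). CDC42BPG, a kinase bound by CDC42, was far less abundant, at 293, 169 and 230 CPM against 2.15 (log2 6.74, SE 0.54). PKP4, a plakophilin of cell junctions, rose less, from 86.9 CPM in cells to 583, 409 and 556 in EV 10K (log2 2.57, SE 0.37). The first 6 of these mRNAs together made up 5.24%, 4.08% and 4.76% of all counts in EV 10K and 0.0826% in cells. The other 11 members of the list summed to 0.197% ± 0.0205 (SD, n = 3) against 0.215%. Among the 10 not called, KANK2, an adhesion scaffold, had a log2 fold change of 0.99 and an edgeR adjusted p of 0.067, and TLN1, the adhesion protein talin, -0.88 and 0.0828.

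GA-rich stretches of the 3′ untranslated region are known to direct several of these mRNAs to protrusions. The 30-base window with the most bases in GAAGA or GAAGG is shown for 5 of them, because these mRNAs carried the largest changes. Capitals mark the motif, which was searched in the sense direction with overlaps allowed. Sequences and positions come from the main GENCODE release 29 transcript (GRCh38): RAB13 at chr1:153981912-153981941 (minus strand), CDC42BPG at chr11:64823980-64824009 (minus), TRAK2 at chr2:201380150-201380179 (minus), KIF1C at chr17:5024177-5024206 (plus) and NET1 at chr10:5456995-5457024 (plus).
RAB13: aaaaaaagGAAGAgagagGAAGGgaGAAGG
CDC42BPG: gtgatccaGAAGAAGGGAAGAtagaGAAGG
TRAK2: gagagaacccaggttaGAAGGatggGAAGA
KIF1C: ggtggggccccttgctaggaGAAGGGAAGA
NET1: aGAAGGctctgtgtgttaactgatgggaga
RAB13 had 6 matches in 448 bases (13.4 per kb) and none of the reverse complement, and CDC42BPG 13 matches in 1086 bases (12 per kb). Among genes with a 3′ untranslated region of similar length, 0.326% of 4291 and 0.128% of 5490, respectively, had as many per kb. TRAK2 (3.0 per kb), KIF1C (2.82) and NET1 (2.04) were near the 2.57 per kb of all 13239 protein-coding genes examined. The genes higher in EV 10K held 2.91 and those lower 2.58 matches per kb, close to the value of all genes. Among the mRNAs shown, a high motif count was thus seen in RAB13 and CDC42BPG. The main transcript of RASSF3 has no 3′ untranslated region in this annotation.

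These levels were set beside the other pellets, with each pair of pellets compared directly (edgeR, 15525 genes, where 4.15% were higher and 2.22% lower than in EV 2.8K, 6.38% in all, and 7.23% higher and 3.70% lower than in EV 100K, 10.9% in all). RAB13 was higher in EV 10K than in both, with means of 667 CPM in EV 2.8K (log2 difference 2.16, edgeR adjusted p = 3.91e-06) and 1383 CPM in EV 100K (1.13, edgeR adjusted p = 0.000989). RASSF3 lay between them, above EV 2.8K by 2.53 and below EV 100K by 0.94 on the log2 scale (log2 difference -0.94, edgeR adjusted p = 0.00609). TRAK2, NET1, KIF1C and CDC42BPG were each higher than in EV 2.8K, by 2.10 to 2.36. Against EV 100K none of these 4 was called, with log2 differences of -0.10 (edgeR adjusted p = 0.861), 0.09 (0.874), -0.60 (0.0794) and 0.38 (0.656), in that order. KIF1C was called lower than in EV 100K with DESeq2 (adjusted p = 0.0125) and without EV 10K set 1 (edgeR adjusted p = 0.0462). EV 100K gave these 6 mRNAs 5.56% ± 0.230 (SD, n = 3) of its counts, and EV 2.8K gave them 1.04% ± 0.202.

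**Figure D2:**
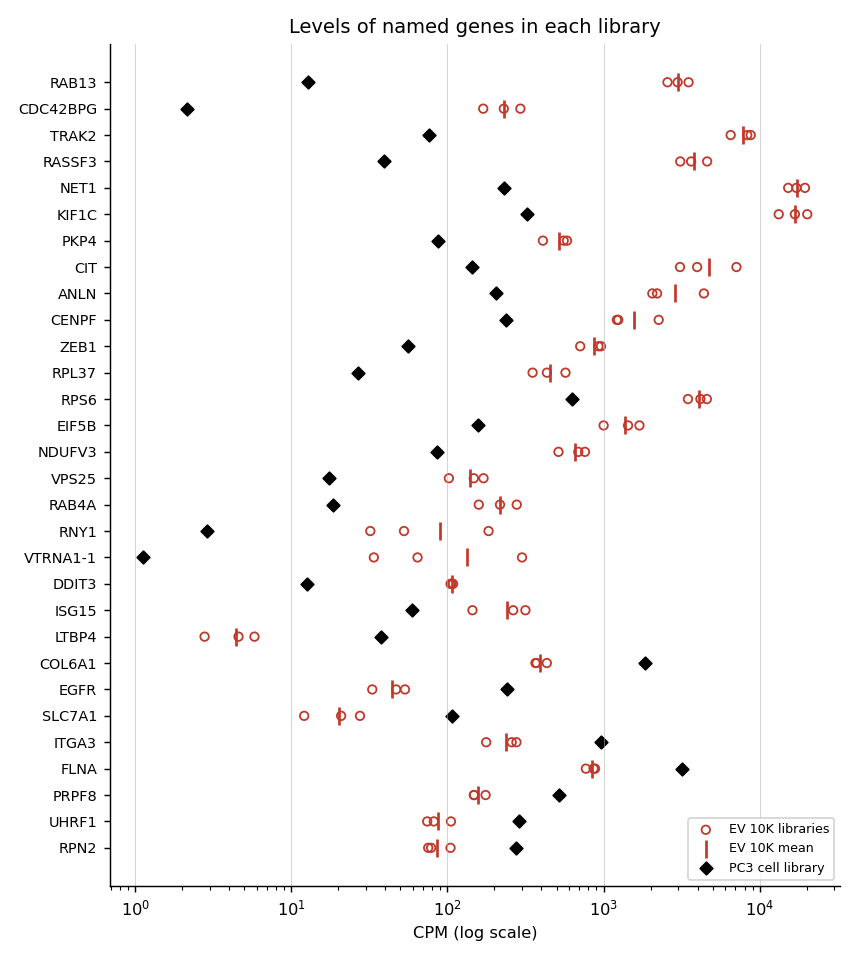
Level of 30 named genes in each EV 10K library (red circles), their mean (red bar) and the PC3 cell library (black diamonds), in CPM on a log axis. The circles lie to the right of the diamond from RAB13 down to ISG15 and to the left of it from LTBP4 to RPN2, without overlap, and they spread most for VTRNA1-1 and RNY1.

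The midbody is the bridge that daughter cells cut at the end of division, and its remnants can be released. Of 45 genes of mitosis, kinetochore and midbody, 6 rose and 1 fell (13.3% and 2.22%), with a median of -0.18. CIT, the citron kinase of the midbody, stood at 7102, 3089 and 3977 CPM in EV 10K and 143 CPM in cells (log2 5.04, SE 0.40, edgeR adjusted p = 2.88e-33; limma-voom gave 0.0533). ANLN, the contractile ring scaffold anillin, stood at 4393, 2054 and 2202 CPM against 204 (log2 3.82, SE 0.38). CENPF, a large kinetochore protein, stood at 2255, 1242 and 1217 CPM against 239 (log2 2.72, SE 0.35). Set 1 was the highest of the 3 libraries for each of these genes, and sets 2 and 3 also lay above the cells. CENPE, a kinetochore motor, rose by 2.47 and INCENP, a chromosomal passenger protein, by 1.71. The other calls were near the threshold: BIRC5 (survivin, log2 1.00) lost its call in 7 settings, among them without EV 10K set 1 (edgeR adjusted p = 0.104) or set 2 (0.0648) and without EV 100K set 2 (0.0538) or set 3 (0.0641). TOP2A (topoisomerase, log2 -1.01) lost it in 10, among them without each EV 10K set (edgeR adjusted p = 0.0879 to 0.104) and each EV 100K set (0.0554 to 0.0741). CIT and ANLN were higher in EV 10K than in EV 100K, by 3.27 and 3.64 on the log2 scale (edgeR adjusted p = 9.7e-06 and 3.14e-06).

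The mRNAs of the cytosolic ribosome formed the largest group that rose. Of 82 ribosomal protein genes tested, 57 rose and none fell (69.5%), with a median of 1.28, and the group made up 5.85%, 7.09% and 6.02% of counts in EV 10K and 2.73% in cells. RPL37, of the large subunit, stood at 570, 434 and 351 CPM against 26.9 (log2 4.07, SE 0.40, edgeR adjusted p = 3.39e-21). RPS6, of the small subunit, stood at 4591, 4175 and 3473 CPM against 628 (log2 2.7, SE 0.34). RPL23 (log2 2.89) and RPL13A (2.29) rose too. Ribosomal protein genes share reads with many processed pseudogenes, of which 58 of 1710 entries tested, of any origin, rose and 1 fell, and how the authors counted shared reads is not known here. RPL37 was higher in EV 10K than in EV 2.8K (log2 difference 2.90) and lower than in EV 100K (-1.23). Among 49 initiation and elongation factors 4 rose and none fell: EIF5B, which joins the ribosomal subunits, at 1698, 1001 and 1435 CPM against 157 (log2 3.13), EIF3A (1.57), EEF1D (1.18) and EEF1B2 (1.12), of which the last 2 named lost the call without scaling factors. None of 20 cytosolic aminoacyl-tRNA synthetases and none of 24 cytosolic chaperones was called.

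Respiratory chain subunits are encoded partly in the nucleus and partly in mitochondrial DNA. Of 79 subunits encoded in the nucleus, 13 rose and none fell (16.5%), with a median of 0.57. NDUFV3, a complex I subunit, stood at 689, 514 and 760 CPM in EV 10K and 86.0 CPM in cells (log2 2.93, SE 0.38, edgeR adjusted p = 2.01e-12). UQCRB, of complex III, stood at 966, 886 and 700 CPM against 188 (log2 2.18), and NDUFAB1, the acyl carrier protein of complex I, at 447, 429 and 341 CPM against 103 (log2 1.98). Of 77 mitochondrial ribosomal proteins 3 rose, or 3.90%, near the 2.82% of all entries. They were MRPL51 (log2 2.05), MRPS23 (1.4, lost without scaling factors) and MRPL20 (1.37). The MRPL20 call was lost without EV 10K set 2 (edgeR adjusted p = 0.0597) and without set 3 (0.0531). SLC25A3, the phosphate carrier of the inner membrane, rose by 1.5, and it was called with SLC25A43 (log2 1.71, lost without scaling factors) among 41 carriers of its family (4.88% higher, against 2.82% of all entries).

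All 13 mRNAs encoded in mitochondrial DNA were called lower, with a median of -1.83. MT-CO1, of complex IV, stood at 1288, 1858 and 1633 CPM against 4458 (log2 -1.48, SE 0.26), and MT-ND4, of complex I, at 792, 927 and 925 CPM against 3079 (log2 -1.80, SE 0.26). All 3 EV 10K libraries lay below the cell library for all 13. The calls rested on the fit: MT-CO1 had an edgeR adjusted p of 1.93e-06, but 0.338 with DESeq2, 0.588 with limma-voom, 0.683 without EV 10K set 1, 0.573 without set 2 and 0.638 without set 3, and its call was lost in 11 of 20 settings. It was also lost without EV 100K set 1 (0.626) or set 2 (0.117) and without EV 2.8K set 2 (0.275). MT-ND4 lost its call in 11 settings too, among them without each EV 10K set (edgeR adjusted p = 0.563 to 0.605), each EV 100K set (0.445 to 0.552) and EV 2.8K set 2 (0.321). Over the 20 settings between 0 and 13 of the 13 mRNAs were called lower. Across all 20 settings the MT-CO1 log2 fold change stayed between -1.81 and -1.35. MT-CO1 levels in the other pellets were far apart, at 12440 CPM in EV 2.8K and 10.8 CPM in EV 100K. RNA of the mitochondrial genome as a whole made up 0.954% ± 0.114 (SD, n = 3) of counts in EV 10K and 2.88% in cells, and neither mitochondrial rRNA was called.

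**Figure D3:**
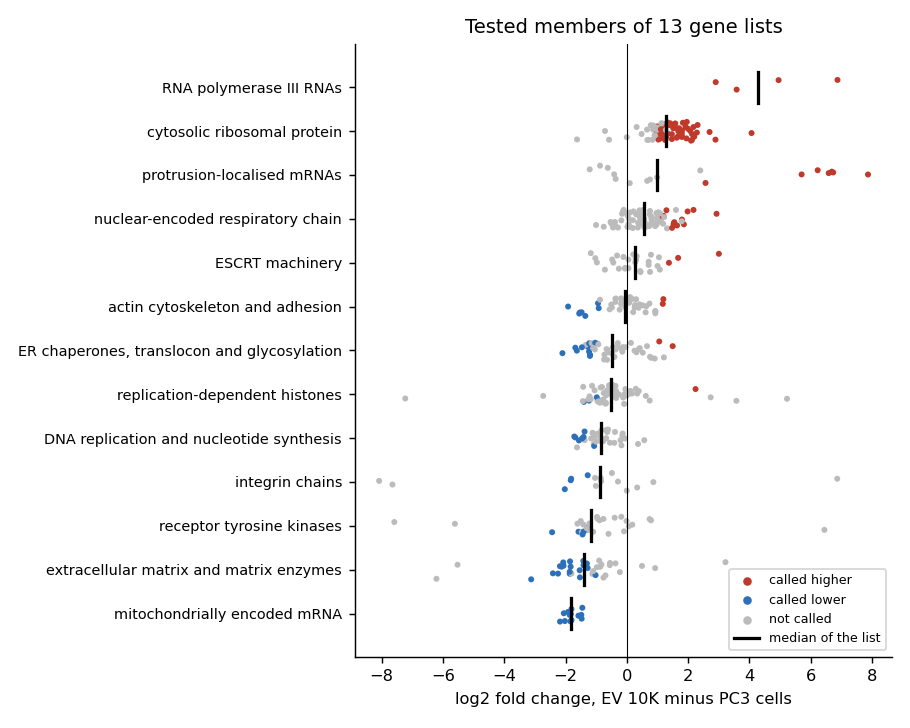
Log2 fold change of each tested member of 13 gene lists, EV 10K minus PC3 cells, with members called higher in red, lower in blue, not called in grey and the median as a black bar. Most ribosomal protein genes and all 4 polymerase III RNAs lie right of 0, most matrix and receptor genes and all 13 mitochondrially encoded mRNAs left of it (the calls of the last are lost in other settings), and uncalled points beyond 5 on either side include genes with no count in 1 group, whose fitted value is no bound.

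Vault RNAs and Y RNAs are short transcripts of RNA polymerase III that are often found in vesicles. Of 14 such RNAs on the list, 10 had no count in any of the 4 libraries, RN7SK, RN7SL1 and RMRP among them, and the 4 tested were all called higher. How reads shared between entries were counted is not stated, so a missing count does not show that an RNA was absent. 3 of them are shown whole, since each ends in the run of T that stops the polymerase, marked in capitals (GENCODE release 29, GRCh38): VTRNA1-1 at chr5:140711275-140711373 and VTRNA1-2 at chr5:140718925-140719013 on the plus strand, and RNY1 at chr7:148987136-148987248 on the minus strand.
VTRNA1-1: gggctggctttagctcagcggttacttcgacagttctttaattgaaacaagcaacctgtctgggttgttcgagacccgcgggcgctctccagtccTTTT
VTRNA1-2: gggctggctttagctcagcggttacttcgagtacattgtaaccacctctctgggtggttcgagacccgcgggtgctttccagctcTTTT
RNY1: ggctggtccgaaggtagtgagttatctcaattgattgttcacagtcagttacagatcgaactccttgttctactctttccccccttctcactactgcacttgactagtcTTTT
RNY1 stood at 183, 52.7 and 32 CPM in EV 10K and 2.87 CPM in cells (log2 4.95, SE 0.59, edgeR adjusted p = 2.12e-14). VTRNA1-1 stood at 300.4, 64.3 and 33.8 CPM against 1.12 (log2 6.88, SE 0.63), and set 1 held several times the level of the other two. Its call was lost in 10 settings, among them without EV 10K set 2 (edgeR adjusted p = 0.203) or set 3 (0.0937), without EV 2.8K set 2 (0.205) and without each EV 100K set (0.255 to 0.309). The VTRNA1-2 call (log2 2.90) was lost in 5 settings, among them without EV 10K set 1 (0.0845) or set 2 (0.283). VTRNA1-1 and RNY1 were among the 5 named genes that varied most within EV 10K.

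Among 31 spliceosomal small nuclear RNAs 4 rose and none fell. RNU6ATAC, of the minor spliceosome, stood at 49.2, 29.1 and 24.2 CPM against 0.431 (log2 6.27, SE 0.93), and RNVU1-27, a variant U1 RNA, at 365, 358 and 200 CPM against 10.2 (log2 4.92, SE 0.44). RNU6-8 rose by 3.81 (lost with limma-voom), and RNVU1-14 by 2.12 with a call lost in 9 settings, among them without EV 10K set 1 (edgeR adjusted p = 0.133) or set 2 (0.0955) and without each EV 100K set (0.0883 to 0.105). These genes have near-identical copies, so that their counts are uncertain. None of 103 small nucleolar and Cajal body RNAs was called.

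One entry of the long noncoding RNA catalogue, lnc-ARF6-1, took 7.93%, 5.89% and 6.12% of all counts in EV 10K and 0.161% in the cell library (95% Wilson interval 0.159% to 0.162%, counting error only). On the log2 scale this was a rise of 5.71 (SE 0.40, edgeR adjusted p = 2.8e-43; limma-voom gave 0.33). Neither the coordinates nor the sequence of lnc-ARF6-1 were examined. Whether its reads also match other genes was not tested. The other catalogue entries made up 1.79% ± 0.116 (SD, n = 3) against 2.00%. Chosen after their values were seen, lnc-SLC26A11-1 and lnc-DLL1-3 had no count in the cell library and means of 138 and 84.4 CPM in EV 10K, which is at least 1598-fold and 979.6-fold higher with a floor of 3 counts in the cell library. Among genes with a symbol, NTN5, a netrin, had 18.9, 11.9 and 31.8 CPM and no count in cells, at least 241.8-fold higher. In the other direction, 2 catalogue entries of at least 10 CPM in cells had no count in EV 10K, lnc-DHRS7B-1 (11.9 CPM, at least 108.3-fold lower, with 3 counts over the group as the floor) and lnc-NDRG1-5 (11 CPM, at least 100.7-fold lower). These fold values allow for counting error only, and a count of 0 can also arise from differences between libraries. Of the nuclear long noncoding RNAs, MALAT1 (1722, 1349 and 1111 CPM against 1962) and NEAT1 (106, 127 and 101 CPM against 68.1) were not called. KCNQ1OT1 fell by 1.91, a call lost in the fit of EV 10K and cells alone, and FTX by 3.20, a call lost without EV 10K set 1 (edgeR adjusted p = 0.284), set 2 (0.2) or set 3 (0.196) and without EV 2.8K set 2 (0.142).

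**Figure D4:**
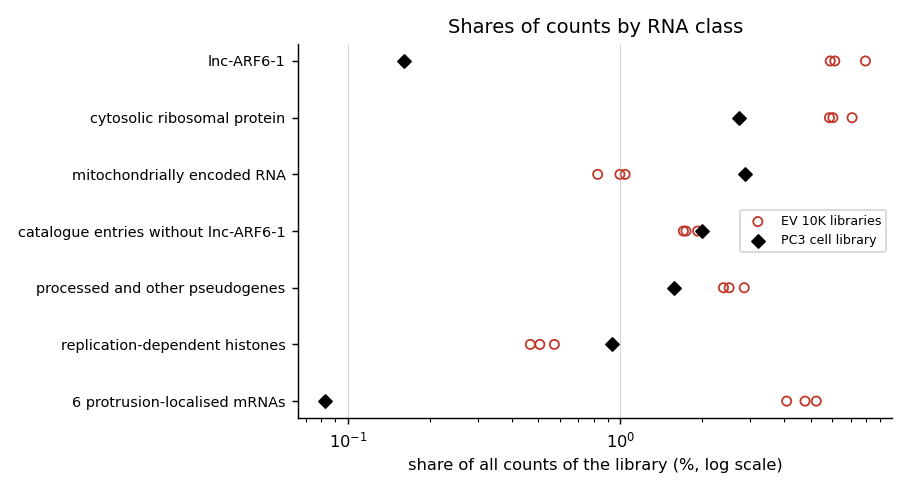
Share of all counts of each library taken by 6 RNA classes and by the 6 most raised protrusion mRNAs, in percent on a log axis, for the 3 EV 10K libraries (red circles) and the PC3 cell library (black diamonds). The largest gaps are those of lnc-ARF6-1 and of the protrusion mRNAs, while the other catalogue entries lie next to the cells.

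Short-lived mRNAs of stress responses rose in part. DDIT3, the stress transcription factor CHOP, stood at 105, 106 and 109 CPM in EV 10K and 12.6 CPM in cells (log2 3.08, SE 0.46, edgeR adjusted p = 5.12e-09). NUPR1, a stress-induced chromatin protein, stood at 43.3, 105 and 67.5 CPM against 8.02 (log2 3.16, SE 0.54), and ATF3, a factor of the same response, at 19.9, 38.7 and 18.8 CPM against 3.31 (log2 2.96, SE 0.65). The lists themselves did not move as a whole: of 20 genes of the ATF4 and unfolded protein response 2 rose and 1 fell (median 0.19), and of 37 immediate early and short-lived mRNAs 4 rose and 3 fell (median 0.01). Of the short-lived mRNAs besides ATF3, each call was lost in some setting. JUNB (log2 1.64) and DUSP1 (2.29) were called higher and FOSL1 (-1.06), KLF10 (-1.18) and ZFP36L2 (-1.41) lower, and the calls were lost without EV 10K set 1 for DUSP1 (edgeR adjusted p = 0.0796, 1 of 3 settings that ended it) and without set 2 for JUNB (0.0838, 1 of 3) and FOSL1 (0.0623). KLF10 lost its call in 11 settings, among them without EV 10K set 2 (0.23) or set 3 (0.125) and each EV 100K set (0.0646 to 0.0803). ZFP36L2 lost it in 13, among them without each EV 10K set (0.372 to 0.601) and each EV 100K set (0.0646 to 0.0815). FOS (3.02, 6.95 and 7.04 CPM against 0.0575), a part of the factor AP-1, lost its call in the fit of EV 10K and cells alone (edgeR adjusted p = 0.284) and with limma-voom. In cells FOS lay below the 0.0862 CPM that 3 counts amount to in that library, so the size of its rise is uncertain. FTH1, the heavy chain of the iron store ferritin, stood at 2520, 4817 and 3467 CPM against 798 (log2 2.17). DDIT3 and NUPR1 were higher in EV 10K than in EV 100K, by 2.33 and 2.66 on the log2 scale (edgeR adjusted p = 1.86e-05 and 4.41e-05).

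Of 24 interferon response genes 3 rose and none fell (12.5%, against 2.82% of all entries), with a median of 1.14. ISG15, a ubiquitin-like modifier, stood at 145, 264 and 316 CPM in EV 10K and 58.9 CPM in cells (log2 2.03, SE 0.39, edgeR adjusted p = 1.29e-05), and it was higher than in EV 100K by 1.99 (edgeR adjusted p = 0.000159). The other two calls were less stable. MX1, a dynamin-like antiviral protein, stood at 6.04, 40.8 and 46.1 CPM against 5.0, so that set 1 lay next to the cells. Its call was lost in 8 settings, among them without EV 10K set 2 (edgeR adjusted p = 0.678) or set 3 (0.667) and without EV 2.8K set 2 (0.545). IFI44L was called at levels of 3.02, 16.8 and 31.9 CPM against 0.977 and lost its call in 12 settings, among them without each EV 10K set (edgeR adjusted p = 0.694 to 0.711), EV 100K set 2 (0.0721) or set 3 (0.113) and EV 2.8K set 2 (0.674).

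Most genes of vesicle formation were not called, as was true of all entries, of which 2.82% were called higher and 1.60% lower. Of 30 genes of the ESCRT machinery, which cuts membrane necks at budding vesicles, 3 rose and none fell (10.0%). Their median was 0.28, against -0.04 for all entries. VPS25, of ESCRT-II, stood at 170, 147 and 102 CPM in EV 10K and 17.4 CPM in cells (log2 3.0, SE 0.42, edgeR adjusted p = 2.3e-10), above EV 2.8K by 2.73 and below EV 100K (log2 difference -1.36). VPS37B, of ESCRT-I, rose by 1.68 and SNF8, of ESCRT-II, by 1.37 (lost without scaling factors). Apart from RAB13, 2 of 42 RAB GTPases rose (4.76%): RAB4A, of recycling endosomes, at 278, 217 and 159 CPM against 18.4 (log2 3.56) and RAB40B at 161, 106 and 71.6 CPM against 12.9 (log2 3.13). Of 15 tetraspanins, 1 rose (6.67%), TSPAN13 (log2 2.61). The mRNAs of the vesicle marker proteins CD9 (34.1, 87.7 and 56.7 CPM against 93.5), CD63 (190.5, 297 and 261 against 164) and CD81 (64.1, 93.7 and 72.4 against 124) were not called. None of 10 annexins and none of 7 caveolins, cavins and flotillins was called.

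Other mRNAs with high values had no common list. ZEB1, a repressor of epithelial genes, stood at 963, 709 and 927 CPM in EV 10K and 55.6 CPM in cells (log2 3.96, SE 0.39, edgeR adjusted p = 2.56e-21). IGIP, which encodes a short secreted peptide, stood at 143, 75.5 and 110 CPM against 0.891 (log2 6.93, SE 0.57). CGNL1, the junction protein paracingulin (log2 6.4), and PALM3, a paralemmin (5.74), were in the same range. Of 446 ZNF-named genes 9 rose and 2 fell (2.02% and 0.448%, below the 2.82% and 1.60% of all entries), with ZNF707 at 967, 709 and 804 CPM against 29.3 (log2 4.82) and ZNF778 at 660, 600 and 457 against 25.7 (log2 4.47). The 2 that fell were ZNF469 (log2 -2.92) and ZNF185 (-1.51). Of 27 kinesins, KIF3B (log2 2.05) rose besides KIF1C. Among intermediate filament and plakin genes, DSP, the desmosomal protein desmoplakin, rose by 1.4 and KRT7, a keratin, fell by 1.38, a call lost without EV 10K set 2 (edgeR adjusted p = 0.0613) or set 3 (0.0664). NEFL, a neurofilament subunit, stood at 819, 598 and 1073 CPM against 257 (log2 1.69), while the other 11 neuronal genes summed to at most 10.8 CPM in EV 10K.

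The largest group that fell encodes the extracellular matrix and the enzymes that act on it. Of 37 such genes 19 fell and none rose (51.4%, against 1.60% of all entries), with a median of -1.40, and the group made up 0.326% ± 0.0235 (SD, n = 3) of counts in EV 10K and 1.20% in cells. COL6A1, a collagen VI chain, stood at 372, 366 and 433 CPM against 1851 (log2 -2.25, SE 0.28, edgeR adjusted p = 1.41e-13), and PLAU, the plasminogen activator urokinase, at 188, 280 and 156 CPM against 870 (log2 -2.06, SE 0.29). LTBP4, which holds latent TGF-beta in the matrix, had 4.58, 2.78 and 5.80 CPM against 37.5 (log2 -3.09, SE 0.65). COL6A1 was below EV 2.8K (log2 difference -1.39, edgeR adjusted p = 0.000585) and above EV 100K (1.55, edgeR adjusted p = 0.000194). LTBP4 was below both, by -2.96 and -2.22 on the log2 scale.

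Some receptors and transporters of the plasma membrane were called lower, while most members of their lists were not called. Of 17 integrin chains 4 fell and none rose (23.5%), with a median of -0.86. ITGA3, a laminin receptor chain, stood at 177, 277 and 258 CPM against 964 (log2 -2.02, SE 0.29, edgeR adjusted p = 5.56e-10), ITGA2 fell by 1.82 and ITGA6 by 1.28. ITGA5 fell by 1.83, a call lost in 9 settings, among them without EV 10K set 1 (edgeR adjusted p = 0.148) or set 2 (0.0866) and without EV 100K set 3 (0.052). The following 4 lists were added after values had been seen. Of 30 receptor tyrosine kinases 5 fell and none rose (16.7%, median -1.16), with EGFR at 46.9, 33 and 53.4 CPM against 241 (log2 -2.44, SE 0.37), AXL at 202, 156 and 105 against 420 (log2 -1.44) and EPHA2 at 140, 145 and 111 against 350 (log2 -1.40). MET (log2 -1.30) lost its call without EV 10K set 3 (edgeR adjusted p = 0.057), and PTK7 (-1.58) in 5 settings, among them without set 1 (0.136) or set 2 (0.161).

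Of 173 solute carrier (SLC) transporters outside the mitochondrial family 10 fell and 2 rose (5.78% and 1.16%), with a median of -0.68. Of all entries 1.60% fell and 2.82% rose. SLC7A1, an importer of cationic amino acids, stood at 27.5, 20.8 and 12.1 CPM against 106 (log2 -2.40, SE 0.45), and SLC16A1, a lactate transporter, at 25.5, 49.5 and 21 CPM against 148 (log2 -2.21, SE 0.44). SLC7A5, a carrier of large neutral amino acids, fell by 1.54 and SLC29A1, a nucleoside transporter, by 2.99. The 2 that rose were SLC24A1, a calcium and potassium exchanger, at 85.9, 70.6 and 77.7 CPM against 8.91 (log2 3.13), and SLC4A7, a bicarbonate transporter (log2 1.10), whose call was lost in 6 settings, among them without EV 10K set 1 (edgeR adjusted p = 0.0924) or set 2 (0.0967) and EV 100K set 2 (0.0507) or set 3 (0.057). Of 179 TMEM-named genes 6 fell and 1 rose (3.35% and 0.559%, against 1.60% and 2.82% of all entries), the latter TMEM181 (log2 2.39). Most TMEM-named genes, 172, were not called. Of 25 plexins and semaphorins 3 fell and none rose: PLXNA1 (log2 -1.52), SEMA7A (-2.28) and PLXNA2 (-2.59). The PLXNA2 call was lost in 11 settings, among them without EV 10K set 1 (edgeR adjusted p = 0.0745) or set 3 (0.16) and without EV 100K set 2 (0.0725) or set 3 (0.0766).

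Genes of the ER, where these proteins are made, were more often called lower than higher. Of 46 ER chaperone, translocon and glycosylation genes 10 fell and 2 rose (21.7% and 4.35%), with a median of -0.47. RPN2, a subunit of the enzyme that attaches N-glycans, stood at 75.2, 105 and 78.5 CPM against 276 (log2 -1.68, SE 0.32, edgeR adjusted p = 1.82e-05), and STT3B, its catalytic subunit, at 41.1, 107 and 74.2 CPM against 230 (log2 -1.63). PDIA4, a disulfide isomerase, stood at 95.2, 152 and 149 CPM against 365 (log2 -1.47). The 2 that rose were SEC11C, a signal peptidase subunit (106, 121 and 112 CPM against 40.1, log2 1.5, lost without scaling factors), and SRP14, of the signal recognition particle. SRP14 stood at 543, 496 and 650 CPM against 270 (log2 1.06), and its call was lost without scaling factors and without EV 10K set 3 (edgeR adjusted p = 0.124). Of 27 lysosomal genes 5 fell and none rose, with a median of -0.82, and each call named here was lost in some setting. CTSB lost it without EV 10K set 1 (edgeR adjusted p = 0.0966) and CTSC in 4 settings, among them without set 3 (0.15). LAMP2 lost it in 9, among them without EV 10K set 2 (0.0562) or set 3 (0.185) and EV 100K set 2 (0.0503) or set 3 (0.0552), and SCARB2 in 9, among them without EV 10K set 1 (0.245) or set 2 (0.0523) and EV 100K set 2 (0.055) or set 3 (0.0547).

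Among 40 actin cytoskeleton and adhesion genes 7 fell and 2 rose (17.5% and 5.0%), with a median of -0.04, equal to that of all entries. FLNA, the actin cross-linker filamin A, stood at 882, 770 and 863 CPM against 3164 (log2 -1.92, SE 0.27, edgeR adjusted p = 2.74e-10). VCL, the adhesion protein vinculin, stood at 401, 350 and 315 CPM against 1041 (log2 -1.55), and ACTN4, an actinin, at 281, 227 and 282 CPM against 762 (log2 -1.53). The 2 that rose encode short proteins, MYL6, a myosin light chain (log2 1.17), and TMSB10, a thymosin that binds actin monomers (1.19), and both calls were lost without scaling factors, that of TMSB10 also under a stricter filter (edgeR adjusted p = 0.0535).

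Of 36 genes of DNA replication and nucleotide synthesis 7 fell and none rose (19.4%), with a median of -0.86. UHRF1, which maintains DNA methylation, stood at 105, 81.7 and 74.2 CPM against 286 (log2 -1.71, SE 0.34, edgeR adjusted p = 3.52e-05), MCM4, a helicase subunit, at 87.1, 66.3 and 110 CPM against 260 (log2 -1.56), and RRM2, of ribonucleotide reductase, at 73.6, 75.3 and 87.2 CPM against 216 (log2 -1.46). Of 57 replication-dependent histones 3 fell, all linker histones: H1-3 (log2 -1.40), H1-4 (-1.23) and H1-2 (-0.98). The H1-2 call was lost in 4 settings, among them without EV 10K set 1 (edgeR adjusted p = 0.0912) or set 2 (0.0573). The 1 that rose was the core histone H4C2, at 577, 600 and 376 CPM against 109 (log2 2.24), and clustered histone genes are near-identical, so that the split of reads between them is uncertain. Of 38 hnRNP and SR splicing regulators 4 rose and 1 fell (10.5% and 2.63%), of 38 spliceosomal proteins 3 rose and 3 fell (7.89% each), and the rest were not called. RBM25 (3049, 1959 and 2394 CPM against 320, log2 2.95), HNRNPH3 (log2 2.75) and HNRNPA3 (2.16) rose, SNRPD1, an Sm protein, rose by 1.65, and the spliceosomal proteins SRRM2 (290, 257 and 312 CPM against 874, log2 -1.61) and PRPF8 (176, 148 and 148 CPM against 519, log2 -1.72) fell. The other calls were smaller: RBM39 (log2 1.24, lost without scaling factors), SNRPE (1.36, lost without scaling factors and without EV 10K set 1, edgeR adjusted p = 0.0561) and SF3B3 (-1.10, lost without set 3, 0.0782). LSM4 (log2 1.17) lost its call in 6 settings, among them without EV 10K set 1 (edgeR adjusted p = 0.161) or set 2 (0.062) and EV 100K set 2 (0.0527) or set 3 (0.0562), and SF3A1 (-1.14) in 5, among them without EV 10K set 2 (0.107) or set 3 (0.077).

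The remaining lists held at most 2 calls each. SNHG6, a snoRNA host gene, rose by 1.97 (1 of 24 such genes), and INSIG1, a sensor of sterols, by 2.04. PMVK, the other of 2 calls among 28 genes of cholesterol and fatty acid synthesis, had a log2 of 1.79 and lost its call in 9 settings, among them without each EV 10K set (edgeR adjusted p = 0.567 to 0.661) and EV 2.8K set 2 (0.527). Of 15 genes of MHC class I presentation, TAPBP (log2 -1.55, DESeq2 adjusted p = 0.0529) and ERAP1 (-2.64, lost without EV 10K set 1, edgeR adjusted p = 0.0663, or set 3, 0.0964) fell. PSMC6 was the 1 call of 34 proteasome subunits (log2 1.06), and it was lost in 7 settings, among them without EV 10K set 1 (edgeR adjusted p = 0.0879) or set 2 (0.128) and each EV 100K set (0.0502 to 0.071). CXCL2 was the 1 call of 23 targets of NF-kB (log2 2.75), lost in 8 settings, among them without EV 10K set 2 (0.0509) or set 3 (0.0573) and EV 2.8K set 2 (0.0702) or set 3 (0.0526). BNIP3 was the 1 call of 15 hypoxia genes (log2 1.30), lost in 8 settings, among them without each EV 10K set (0.0597 to 0.087) and each EV 100K set (0.0503 to 0.0671). Of 22 genes of glycolysis 1 fell, SLC16A1, and GAPDH stood at 2001, 2725 and 2691 CPM against 1726 and was not called. No tubulin gene of 11 was called, and of 10 PC3 and prostate markers tested CD44 fell (log2 -1.09), a call lost in 5 settings, among them without EV 10K set 3 (edgeR adjusted p = 0.102).

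Shorter mRNAs were higher relative to cells. Over 13528 protein-coding genes in 5 groups of equal size by transcript length, the median log2 fold change was 0.26 for transcripts of up to 1776 bases, -0.06, -0.16 and -0.25 in the next groups and -0.23 from 5400 bases. The difference between the shortest and the longest group was 0.48 from these fitted values. From the CPM of single libraries, as log2 ratios to the cell library with a pseudocount of 0.5 CPM, it was 0.240, 0.415 and 0.358 in sets 1 to 3, smaller than the fitted one in each. Of the shortest group 5.95% rose and 0.849% fell, and of the longest 4.40% rose and 5.06% fell, so that the long group held calls in both directions. The median of the shortest group was 0.21 without the ribosomal protein, respiratory chain and mitochondrially encoded genes. By coding length it went from 0.32 to -0.29, while by GC content of the transcript it ran from -0.02 to -0.12 and by length of the 5′ untranslated region from -0.05 to -0.12. These are descriptions over genes, which are not replicates, and length, function and level were not separated.

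**Figure D5:**
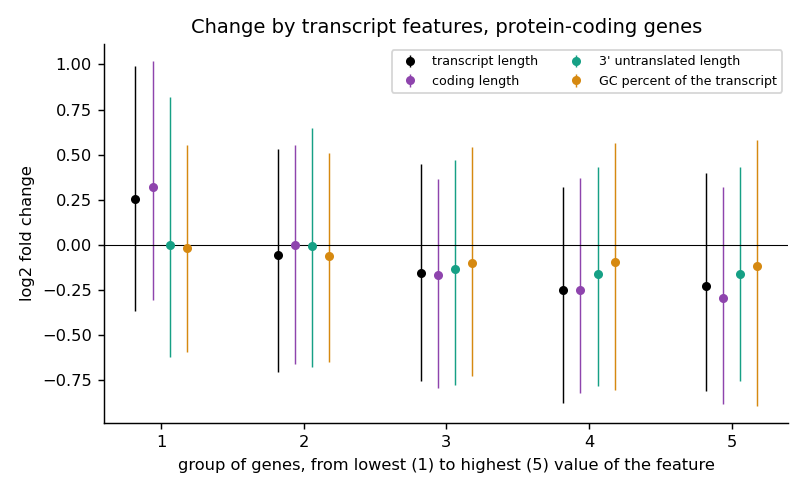
Median log2 fold change, EV 10K minus PC3 cells (points, with bars from the lower to the upper quartile), for 5 groups of protein-coding genes ordered by transcript length, coding length, length of the 3′ untranslated region or GC content. The median falls from the first group to the fourth for both lengths and stays near 0 for GC content, and the quartile bars of all groups overlap.

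Fewer genes were seen in the pellet. After thinning to 7933251 counts per library, 15901, 16621 and 16020 entries had a count in EV 10K and 23079 in the cell library, and for protein-coding genes 11690, 12055 and 11863 against 13232. All 3859 protein-coding genes of at least 50 CPM in cells had a count in every EV 10K library, as did 4961 of 5020 with 10 to 50 CPM. Of 1679 genes with 1 to 5 CPM in cells, 165 (9.83%) had no count in any of them. By counting error alone, a count of 0 allows up to 0.285 to 0.379 CPM in a single EV 10K library. Zeros varied beyond that, since FLJ16779 had 0 CPM in EV 10K set 1 and 17.2 and 9.51 in sets 2 and 3. A count of 0 is therefore no firm bound on the level. Shares and numbers of genes were not tested. An exact permutation test of 3 libraries and 1 cannot give a p below 0.25. All values are relative to the total of a library, so that more vesicles with an RNA and more copies per vesicle cannot be told apart.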

How the data were processed

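Total RNA of PC3 cells and of vesicle pellets was extracted with Trizol and made into libraries with a stranded total RNA kit for low input, per the labels' protocols. The tools listed in the submitters' processing notes are STAR 2.6.1d, featureCounts 1.6.3, cutadapt 2.7 and bcl2fastq 2.19.1.403, with the build GRCh38. Which annotation and strand setting were used, and how shared reads were counted, is not stated in the notes. The deposited table holds raw counts for 94946 entries, 45574 with GENCODE release 29 identifiers and 49372 of a long noncoding RNA catalogue.

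Tests used edgeR 4.0.16 in R 4.3.3 (TMM, filterByExpr with a minimum count of 10, quasi-likelihood F-test with robust estimation, Benjamini-Hochberg adjustment over all entries tested). All 10 libraries entered the fit, with 1 mean per group and 6 residual degrees of freedom. The cell library has no replicate and was assumed to vary like the vesicle libraries. The pellets themselves did not vary alike. Their biological coefficient of variation was 1.179 (the 2.8K pellet), 0.767 (10K) and 0.253 (100K), while 1 fit served all groups. Very small p-values are therefore no measure of certainty. That of RAB13 moved by many orders of magnitude over the 20 settings, though its call was kept in each. The prior degrees of freedom were infinite, so that all genes shared 1 trend of spread. Pellets were compared in a fit of the 9 vesicle libraries. Alternatives used DESeq2 1.42.0, limma-voom 3.58.1, other scalings, filters and sample sets.

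The comparison, the 50 gene lists (2765 genes) and the tests were chosen with earlier results of these data known, and 4 lists were added later. Named genes are the 12 highest and 12 lowest that passed (at least 10 CPM in the higher group, 3 counts in the lower, all 3 EV 10K libraries on 1 side), for each list up to 3 called members (lowest p) and up to 2 called the opposite way, the 5 most variable in EV 10K, the largest shares, the highest genes with no EV 10K count and 14 fixed names. Other called list members are named to complete a count and were chosen after their values were seen. The test was tried on simulated counts (19742 genes), drawn from the spread fitted over all 10 libraries. It called 0 of 89 simulated 2-fold changes, 19 of 94 simulated 4-fold changes and 2 genes with no change. With that spread, changes of this size are often missed. Some items are not reported here.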

Additional observations from a re-analysis of the deposited data

Results flagged for a closer look

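Genes are listed here that were called against the same cell library in opposite directions in EV 10K and in another pellet, with a difference between the 2 pellets that was called in the direct comparison (edgeR, 9 vesicle libraries). Against cells, 4 mitochondrially encoded mRNAs were lower in EV 10K and higher in EV 2.8K. The log2 difference of EV 10K minus EV 2.8K was -3.21 for MT-ND4L (edgeR adjusted p = 0.000417), -3.06 for MT-ND2 (0.000364), -2.98 for MT-CO1 (0.0002) and -2.97 for MT-ND4 (0.000416). With the set number as a replicate block, the difference between these pellets was not called for MT-ND4L and MT-ND4 (values below). The calls of these 4 mRNAs against cells were lost in 10 or 11 of 20 settings, among them without any 1 of the EV 10K sets. TMSB10, a thymosin, and SRP14, of the signal recognition particle, were higher than cells in EV 10K and lower in EV 100K. Their log2 differences of EV 10K minus EV 100K were 2.21 (edgeR adjusted p = 1.25e-05) and 2.38 (2.49e-06). The comparisons with cells share the 1 cell library.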

How the results depend on the processing

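Of 153 called genes examined singly, 94 kept their call in all 20 alternative settings and 59 lost it in at least 1. The number of entries lower in EV 10K, 359, was 225 with GENCODE genes only, 1326 with limma-voom and 776 with total counts, and ran from 246 (without EV 10K set 1) to 622 (without EV 2.8K set 1) when 1 library was left out. The number higher, 631, ran from 503 to 900 when 1 library was left out. Of the gene lists with at least 5 members tested, leaving out the 4 added later, 20 had a median above that of all entries, and 32 did with limma-voom and with the replicate block. The named genes lower than in EV 100K numbered 23, and 14 to 26 when 1 library was left out (14 without EV 10K set 3). The uncalled log2 differences of EV 10K minus EV 100K lay between -0.197 and 0.014 for TRAK2 and between -0.013 and 0.167 for NET1 when 1 library was left out. Catalogue entries other than lnc-ARF6-1 made up 1.94% of counts when mitochondrial RNA and lnc-ARF6-1 were taken out of the total. EV 10K held 70.1% of the cell library's number of entries at equal depth, and 82.2% with at least 5 counts. The difference between the shortest and the longest genes was 0.48, and 0.61 by coding length and 0.59 with a stricter filter on counts. The coefficient of variation was 0.767, and 0.222 for genes of at least 50 CPM. The cause of these changes was not tested.

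Samples with the same set number deviated from their group means with correlations of -0.00907 to 0.0481 over genes. For samples with different set numbers these were -0.0363 to 0.0299. The set numbers were not treated as pairs in the main fit, though correlations over all genes cannot show that the sets are unpaired. With the set number as a replicate block, 707 entries were higher and 425 lower than in cells, with a median of -0.36. With the block, the difference between EV 10K and EV 2.8K had an edgeR adjusted p of 0.0674 for MT-ND4L and 0.0576 for MT-ND4. The self-test, with counts drawn from the spread fitted over all 10 libraries, recovered 0 of 89 simulated 2-fold changes. In the data, genes with changes near this size were still called, among them SRP14 (log2 1.06) and TMSB10 (1.19). Both calls were lost in some settings, and the true size of these changes is not known. These calls therefore cannot show how often the test finds changes of this size.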
